A study of Saccharomyces cerevisiae with 35 samples.

Results

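The genes described here encode the calcium-regulated phosphatase calcineurin, its regulators and its transcription factor, the calcium pumps and the exchanger that clear calcium from the cytosol, and a calmodulin-dependent kinase. They are 10 of the 6717 genes in the count table and were chosen by name for their known roles. The rule uses no measured value, but the choice was made with earlier results of these data known. Messenger RNA was measured by RNA-seq in 4 diploid strains of Saccharomyces cerevisiae, each sampled in rich medium (YPD) before stress and again once NaCl had been at 0.7 M for 30 min and for 3 h. BY4743 is a laboratory strain, homozygous for his3Δ1, leu2Δ0 and ura3Δ0 and heterozygous for lys2Δ0 and met15Δ0, while BC187 (Wine/European lineage), NCYC3290 (West African) and YPS128 (North American) are wild strains. Every group held 3 biological replicates except YPS128 at 30 min, which held 2, and the 3 samples of a replicate came from the same culture. The unstressed samples carry the NaCl label as well, but the growth description places them before salt was added. Each lineage is represented by 1 strain.

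Calcineurin is a heterodimer of a catalytic A subunit and a regulatory B subunit, and it becomes active when cytosolic calcium rises and calmodulin binds it. In yeast exposed to high salt, active calcineurin dephosphorylates the zinc-finger factor Crz1, which then enters the nucleus and induces genes for ion transport, cell wall synthesis and calcium clearance, the sodium pump gene ENA1 among them. The cytosolic calcium signal is ended by the vacuolar pump Pmc1, the Golgi pump Pmr1 and the vacuolar exchanger Vcx1.

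The 35 libraries held 3629637 to 5866906 reads assigned to genes (median 4732586). The 10 genes had 23 to 3987 reads per library, and all 10 passed the filter on low counts. Levels are given as CPM (counts relative to library size) scaled by TMM, a normalization that assumes most genes do not change. The deleted markers URA3 and LEU2 had 0 reads in every BY4743 library and at least 143 and 209 reads in the wild strains. TMM factors ran from 0.63 to 1.55, and the 10 most abundant genes took 8.31 to 22.4% of a library's reads. The lowest total, the lowest factor and the highest such share all belonged to YPS128 replicate 1 at 30 min. Scaling by library totals alone shifted the median log2 change of all genes at 30 min by 0.27 for BY4743, 0.03 for BC187, 0.01 for NCYC3290 and -0.10 for YPS128, and at 3 h by 0.17, 0.27, 0.60 and 0.81. All changes below are therefore relative to the TMM scale. By the test described below, 34.3% of genes rose and 28.7% fell in BY4743 at 30 min. In YPS128 the shares were 35.7 and 32.2% at 3 h but 8.59 and 6.58% at 30 min. The assumption that most genes do not change was thus not met by the calls in every contrast. Wild strains were mapped to the S288c reference, so a difference in level between strains and a difference in mapping cannot be told apart. In bulk RNA, fewer cells expressing a gene and less RNA per cell cannot be told apart either.

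The letters of 2 elements were searched on both strands of the 600 bases before each start codon of the R64 genome, RefSeq annotation: the Crz1 element in its forms GNGGCTCA, GNGGCGCA and GAGGCTG, and the stress response element AGGGG, to which the general stress factors Msn2 and Msn4 bind. Some form of the Crz1 element was present in 8.25% of 5999 genes, in 2 of the 10 genes, RCN2 and PMC1, and in 8 of 11 other known Crz1 targets, a list that was in part established through this element. AGGGG was present in 39.7% of all genes and in 5 of the 10 (CMP2, RCN2, CRZ1, PMC1 and CMK2). The sites of PMC1 and RCN2 are printed because these genes had the largest increases at 30 min, and capitals mark the element. A match is a description of the letters and not a measured site.
RCN2, 260 bases before the start codon, plus strand, chrXV:755057-755085: attgaggtcatGAGGCTGgaagaaaacaa
PMC1, 540 bases before the start codon, plus strand, chrVII:485370-485399: aagaaaattagGAGGCTCAggccctagaag
PMC1, 143 bases before the start codon, plus strand with the element on the minus strand, chrVII:485767-485796: caaaaaactcaTGCGCCTCcagtaaaaact
The proximal PMC1 site lay in the window from 250 bases before to 50 bases after the start codon, which also held AGGGG, as did the same window of CMK2, the gene with the largest decrease, and of CMP2. AGGGG was found in 21.6% of such 300-base windows over the genome. In the windows below, capitals mark the proximal Crz1 element and AGGGG, or its reverse complement.
PMC1 promoter window, chrVII:485671-485970, plus strand: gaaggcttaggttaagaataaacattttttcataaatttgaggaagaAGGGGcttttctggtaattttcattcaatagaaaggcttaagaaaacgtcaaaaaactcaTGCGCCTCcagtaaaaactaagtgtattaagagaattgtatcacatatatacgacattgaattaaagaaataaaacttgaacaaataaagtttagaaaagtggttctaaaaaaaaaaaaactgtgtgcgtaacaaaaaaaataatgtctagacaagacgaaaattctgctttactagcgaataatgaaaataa
CMK2 promoter window, chrXV:296071-296370, minus strand: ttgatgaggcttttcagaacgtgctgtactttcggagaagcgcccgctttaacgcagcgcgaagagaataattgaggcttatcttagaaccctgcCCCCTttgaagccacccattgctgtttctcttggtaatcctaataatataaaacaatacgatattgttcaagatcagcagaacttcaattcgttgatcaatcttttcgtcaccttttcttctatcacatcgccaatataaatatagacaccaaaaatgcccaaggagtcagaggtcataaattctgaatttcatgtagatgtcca
CMP2 promoter window, chrXIII:159930-160229, plus strand: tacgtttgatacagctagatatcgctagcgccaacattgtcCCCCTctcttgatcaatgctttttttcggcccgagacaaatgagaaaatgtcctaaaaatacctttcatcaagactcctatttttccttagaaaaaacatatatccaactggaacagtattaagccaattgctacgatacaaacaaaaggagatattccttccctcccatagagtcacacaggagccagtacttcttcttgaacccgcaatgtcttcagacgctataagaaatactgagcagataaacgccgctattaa

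At 30 min, the vacuolar calcium pump gene PMC1 and the calcineurin regulator gene RCN2 rose the most in BY4743, 3.41-fold and 4.58-fold, whereas the kinase gene CMK2 fell 4.08-fold in BC187, 5.07-fold in NCYC3290 and 17.4-fold in YPS128. At 3 h, the catalytic subunit gene CMP2 was higher and CMK2 was lower than before stress in each of the 4 strains. CNB1 and PMR1 passed the test in no contrast with the unstressed cells. The test throughout was edgeR's quasi-likelihood test on all genes, with Benjamini-Hochberg adjustment and a threshold of 0.05, in a model with the replicate number as a block. A change is given as log2 with its standard error (SE). Both time points were compared with the same unstressed libraries.

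**Figure D1:**
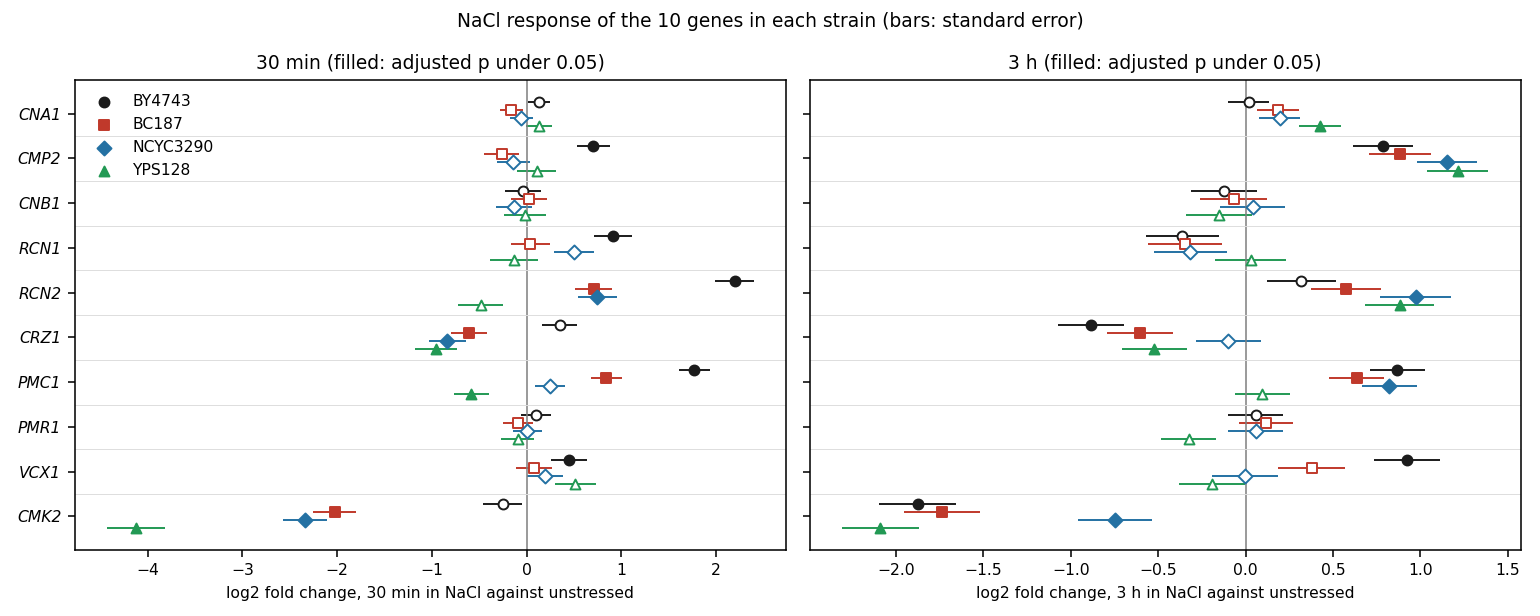
Log2 fold change of the 10 genes at 30 min (left) and 3 h (right) of NaCl against unstressed cells, on the TMM scale, with 1 point per strain, bars for the standard error, and filled points where the edgeR adjusted p was under 0.05. CMK2 lay between -4.12 and -2.03 in the 3 wild strains at 30 min and at -0.26 in BY4743, and RCN2 and PMC1 stood highest in BY4743. At 3 h CMP2 was filled and above 0 in all 4 strains. Sign changes with library totals in place of TMM are listed only for values that passed in either scaling. They were CNB1, CRZ1, PMR1 and VCX1 in YPS128 and VCX1 in NCYC3290, all at 3 h.

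In BY4743 at 30 min, 5 of the 10 genes rose (CMP2, RCN1, RCN2, PMC1 and VCX1), where 34.3% of all 6019 genes tested rose, and 0 fell, where 28.7% of all genes fell. The 0 held at an unadjusted p under 0.05 in edgeR and at an adjusted p under 0.05 in DESeq2. In BC187, 2 genes rose (RCN2 and PMC1) against 18.4% of all genes, and 2 fell (CRZ1 and CMK2) against 16.3%. In NCYC3290, RCN2 was the 1 gene that rose, against 16.2% of all genes, and 2 fell (CRZ1 and CMK2), against 12.7%. In YPS128, 0 genes rose by edgeR and by DESeq2, against 8.59% of all genes, with 1 higher at an unadjusted p under 0.05, and 3 fell (CRZ1, PMC1 and CMK2), against 6.58%. The median log2 change of the 10 genes was 0.40 in BY4743 (0.08 over all genes), -0.04 in BC187 (-0.03), -0.02 in NCYC3290 (-0.02) and -0.12 in YPS128 (-0.02). Over the 40 tests the 10 genes gave 8 increases and 7 decreases, and 11 and 6 with library totals in place of TMM. The share of increases among calls over all genes went from 54.7 to 61.7% between these scalings.

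At 3 h, 3 genes rose in BY4743 (CMP2, PMC1 and VCX1) against 23.1% of all genes, and 2 fell (CRZ1 and CMK2) against 21.5%. BC187 had 3 increases (CMP2, RCN2 and PMC1) against 30.4% of all genes and 2 decreases (CRZ1 and CMK2) against 24.5%. In NCYC3290 CMP2, RCN2 and PMC1 rose, against 32.2%, and CMK2 fell, against 28.2%. In YPS128 the increases were CNA1, CMP2 and RCN2, against 35.7%, and the decreases CRZ1 and CMK2, against 32.2%. No strain had more than 3 of the 10 genes higher or 2 lower at 3 h. The 12 increases and 7 decreases became 24 and 4 with library totals in place of TMM, as the share of increases among calls over all genes went from 53.3 to 78.4%. The number of calls over all genes went from 13712 to 14641.

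**Figure D2:**
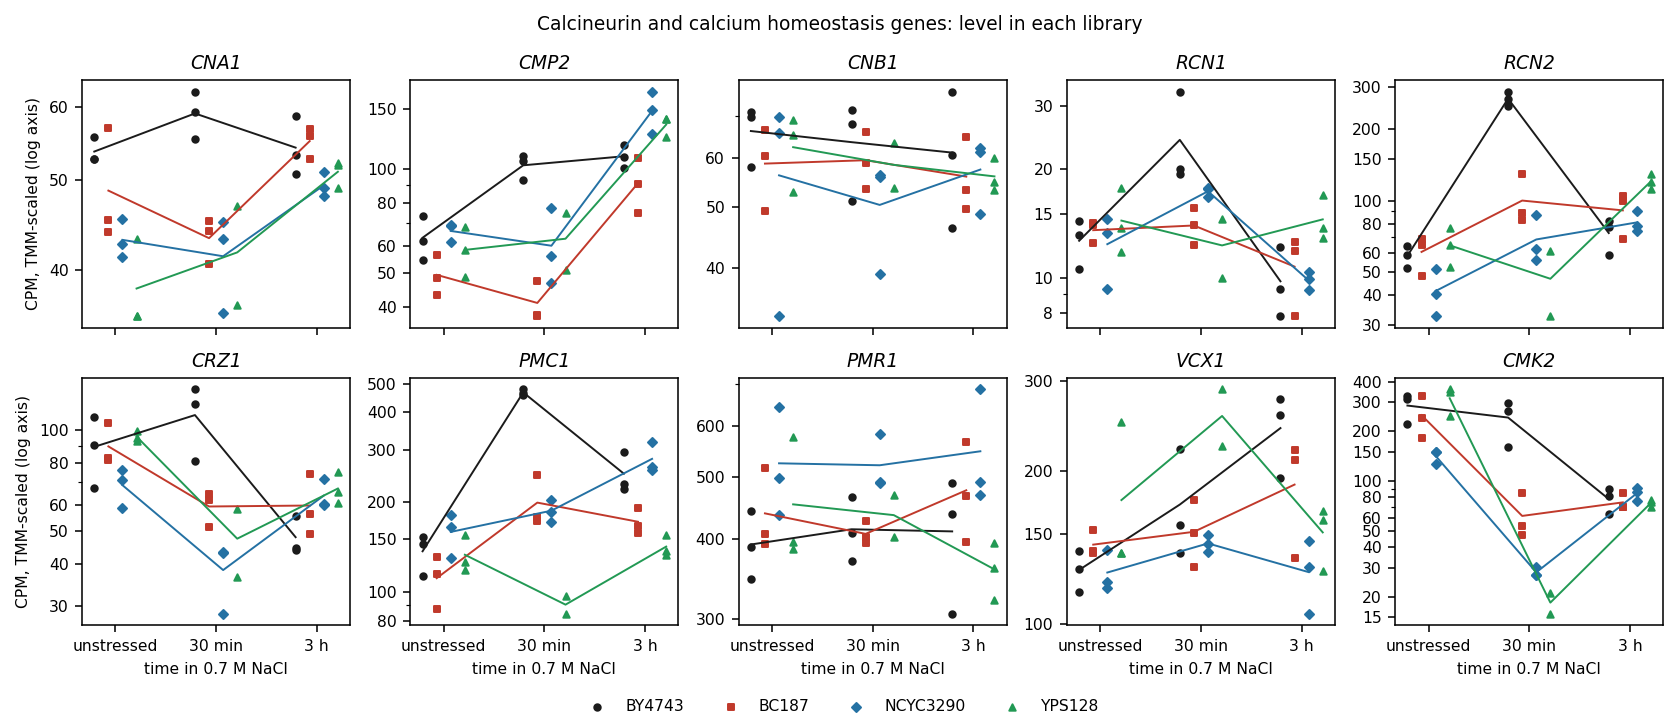
Level of each of the 10 genes in every library, in TMM-scaled CPM on a log axis that differs between panels, for the 4 strains before stress and at 30 min and 3 h of NaCl, with lines through the group means. PMC1 and RCN2 in BY4743 peaked at 30 min, with means of 467 and 268 CPM, while CMK2 in YPS128 had its lowest values there, 15.7 and 21.2 CPM.

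The catalytic subunits of calcineurin are encoded by the paralogues CNA1 (YLR433C, chromosome XII, 1004347 to 1006008, minus strand) and CMP2 (YML057W, chromosome XIII, 160180 to 161994, plus strand). Before stress their transcripts had similar levels per length, 23.0 to 32.3 CPM per kb for CNA1 and 27.2 to 36.5 CPM per kb for CMP2 over the strain means. CMP2 in BY4743 was at 54.6, 73.2 and 62.2 CPM in replicates 1 to 3 before stress, 109.5, 93.3 and 106 CPM at 30 min and 101, 118 and 109 CPM at 3 h. Both sets of stressed BY4743 libraries lay above the unstressed ones, and CMP2 rose at 30 min (log2 0.70 ± 0.17, adjusted p = 0.000773, edgeR) and remained 1.73-fold higher at 3 h (0.79 ± 0.17, adjusted p = 0.000346, edgeR). In the wild strains the rise came between the stressed time points. In BC187 CMP2 was at 48.4, 56.6 and 43.4 CPM before stress, 37.5, 37.9 and 47.5 CPM at 30 min and 74.7, 108 and 90.9 CPM at 3 h. The NCYC3290 libraries had 61.6, 68.5 and 68.8 CPM before stress, 77.5, 46.8 and 55.9 CPM at 30 min and 126, 168 and 149 CPM at 3 h. In YPS128 CMP2 was at 48.8, 68.1 and 58.3 CPM before stress, 75.0 and 50.9 CPM at 30 min and 140.4, 139.7 and 124 CPM at 3 h. All 3 libraries at 3 h lay above all unstressed libraries in each wild strain, while those at 30 min overlapped them. The log2 change at 3 h was 0.88 ± 0.18 in BC187 (edgeR adjusted p = 8.65e-05), 1.15 ± 0.17 in NCYC3290 (edgeR adjusted p = 1.08e-06) and 1.21 ± 0.18 in YPS128 (edgeR adjusted p = 4.19e-07). No alternative ended the CMP2 calls at either time.

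CNA1 moved less, with log2 changes between -0.16 and 0.43 over the 8 contrasts. Its group means were 53.7, 59.0 and 54.2 CPM in BY4743 in the order of time. In YPS128 it was at 35.7, 43.2 and 35.6 CPM before stress and 52.2, 49.0 and 52.0 CPM at 3 h, groups that did not overlap, and this was its 1 call (log2 0.43 ± 0.12, adjusted p = 0.00234, edgeR). The call was lost without replicate 1 (0.36, adjusted p = 0.0710, edgeR) or replicate 3 (0.34, adjusted p = 0.0791, edgeR). At 3 h CNA1 also passed in BC187 and NCYC3290 with at least 10 counts in every library (0.28 and 0.33) and with library totals in place of TMM (0.46 and 0.79), which added BY4743 at 30 min (0.40). Since both transcripts are read from the same library, their ratio does not depend on the scaling. It was computed after the values had been seen. Reads per kb of CMP2 over those of CNA1 averaged 1.08 ± 0.128 (SD, n = 3) in unstressed BY4743, 1.60 ± 0.221 at 30 min and 1.85 ± 0.166 at 3 h. From unstressed to 3 h, the mean ratio went from 0.931 to 1.52 in BC187, from 1.41 to 2.74 in NCYC3290 and from 1.40 to 2.42 in YPS128. The libraries at 3 h had higher ratios than the unstressed libraries of the same strain in all 4 strains.

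**Figure D3:**
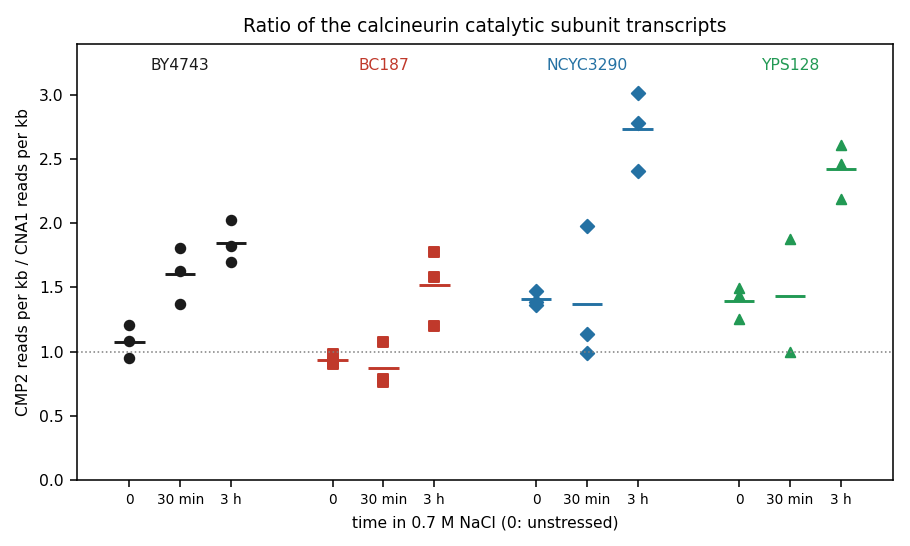
Ratio of CMP2 to CNA1 reads per kb of coding length in each library, by strain and time in 0.7 M NaCl, with short lines at the group means and a dotted line at equal levels. In unstressed BC187 the ratios were 0.979, 0.911 and 0.903, and at 3 h in NCYC3290 they were 2.41, 3.02 and 2.78.

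The regulatory B subunit gene CNB1 (YKL190W, chromosome XI, 82947 to 83550, plus strand), which has 2 coding exons, was more abundant than either A subunit gene, with 106 to 125 CPM per kb over the unstressed strain means. Its log2 changes ran from -0.15 to 0.04 over the 8 contrasts, and 0 of 8 passed by edgeR, by DESeq2 or at an unadjusted edgeR p under 0.05. At 3 h in YPS128 the value was -0.15 ± 0.19, and with library totals in place of TMM it became an increase that passed (0.65, adjusted p = 0.0282, edgeR), as did the NCYC3290 value of 0.04 at that time (0.62, adjusted p = 0.0387, edgeR). The unstressed NCYC3290 libraries were at 69.6, 33.5 and 65.6 CPM, the widest spread among its 12 groups.

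RCN1 and RCN2 encode calcipressin family proteins that bind calcineurin and modulate its activity. RCN2 (YOR220W, chromosome XV, 755328 to 756125, plus strand) had a transient peak in BY4743, where it was at 52.1, 64.5 and 59.2 CPM before stress, 249.5, 266 and 287 CPM at 30 min and 59.3, 77.5 and 82.3 CPM at 3 h. Every library at 30 min lay far above every other BY4743 library, and the log2 change was 2.19 ± 0.20 (edgeR adjusted p = 9.9e-11). At 3 h the groups overlapped (0.32 ± 0.20, edgeR adjusted p = 0.198). BC187 was at 65.0, 69.2 and 48.4 CPM before stress, 88.5, 129 and 82.7 CPM at 30 min and 69.2, 99.2 and 104 CPM at 3 h. The NCYC3290 values were 32.8, 51.8 and 40.5 CPM, 86.8, 56.5 and 62.6 CPM and 74.2, 78.0 and 90.6 CPM in the same order of times. RCN2 rose in both strains at 30 min, by 0.71 ± 0.20 in BC187 (edgeR adjusted p = 0.00609) and 0.74 ± 0.21 in NCYC3290 (edgeR adjusted p = 0.00648). YPS128 had 76.5, 65.3 and 52.8 CPM before stress, 32.7 and 61.2 CPM in the 2 libraries at 30 min and 112, 120 and 129.6 CPM at 3 h. Its change at 30 min was -0.49 ± 0.24 (edgeR adjusted p = 0.183), and at 3 h RCN2 was 1.84-fold higher with no overlap (0.88 ± 0.20, adjusted p = 0.000249, edgeR). It was also higher at 3 h in NCYC3290 (0.97 ± 0.20, adjusted p = 0.000126, edgeR) and in BC187 (0.57 ± 0.20, adjusted p = 0.0156, edgeR). In BC187 the 30 min call was lost without replicate 2 (0.59, adjusted p = 0.0735, edgeR) or 3 (0.64, adjusted p = 0.0623, edgeR) and the 3 h call without replicate 3 (0.24, adjusted p = 0.449, edgeR), and in NCYC3290 the 30 min call was lost without replicate 1 (0.38, adjusted p = 0.242, edgeR).

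RCN1 (YKL159C, chromosome XI, 153816 to 154451, minus strand) was the least abundant of the 10 genes, with 19.5 to 22.7 CPM per kb over the unstressed strain means. It rose in BY4743 at 30 min, from 10.6, 13.1 and 14.3 CPM to 20.1, 19.4 and 32.9 CPM (log2 0.91 ± 0.20, adjusted p = 0.000177, edgeR), with no overlap, and replicate 3 was the highest. By 3 h it was back at 7.83, 9.31 and 12.2 CPM. NCYC3290 at 30 min was at 17.8, 16.7 and 17.6 CPM against 9.29, 14.6 and 13.3 CPM before stress, which did not overlap but did not pass (log2 0.50 ± 0.21, adjusted p = 0.0682, edgeR) except with at least 10 counts in every library (0.55, adjusted p = 0.0427, edgeR). Group means in BC187 and YPS128 stayed between 10.8 and 14.5 CPM, and the YPS128 value at 3 h (0.03) passed with library totals in place of TMM (0.85, adjusted p = 0.000400, edgeR).

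CRZ1 (YNL027W, chromosome XIV, 579580 to 581616, plus strand) encodes the transcription factor that calcineurin activates. Its transcript fell at 30 min in the 3 wild strains. In YPS128 it was at 95.0, 99.5 and 92.6 CPM before stress, 36.6 and 58.4 CPM at 30 min and 60.8, 65.2 and 74.9 CPM at 3 h. In NCYC3290 it was at 58.5, 71.0 and 76.1 CPM, 28.3, 43.2 and 43.4 CPM and 60.4, 59.7 and 71.4 CPM at these times. BC187 had 105, 81.2 and 82.3 CPM, 51.3, 62.1 and 64.3 CPM and 56.1, 48.9 and 73.8 CPM. All wild libraries at 30 min lay below the unstressed libraries of their strain, and the log2 changes were -0.61 ± 0.19 in BC187 (edgeR adjusted p = 0.0115), -0.84 ± 0.19 in NCYC3290 (edgeR adjusted p = 0.00134) and -0.96 ± 0.22 in YPS128 (edgeR adjusted p = 0.00290). BY4743 went from 67.3, 90.6 and 109.7 CPM to 132, 119 and 81.2 CPM at 30 min, groups that overlapped (0.35 ± 0.18, adjusted p = 0.0973, edgeR), and then to 44.6, 43.9 and 55.4 CPM at 3 h, below every unstressed library (-0.89 ± 0.19, adjusted p = 0.000245, edgeR). The BY4743 value at 30 min passed as an increase without replicate 3 (0.61, adjusted p = 0.0196, edgeR), with library totals in place of TMM (0.66, adjusted p = 0.0244, edgeR) and with a minimum of 10 counts in every library (0.42, adjusted p = 0.0454, edgeR). At 3 h CRZ1 was also lower in BC187 (-0.60 ± 0.19, adjusted p = 0.00718, edgeR) and in YPS128 (-0.52 ± 0.19, adjusted p = 0.0142, edgeR), where library totals in place of TMM turned the sign (0.29, adjusted p = 0.294, edgeR). Without replicate 1 the 30 min calls were lost in BC187 (-0.37, adjusted p = 0.201, edgeR) and YPS128 (-0.67, adjusted p = 0.145, edgeR), as were the 3 h calls in BC187 (-0.42, adjusted p = 0.0970, edgeR) and YPS128 (-0.46, adjusted p = 0.0550, edgeR). Those 3 h calls were also lost without replicate 2, and YPS128's with a minimum of 10 counts in every library (-0.37, adjusted p = 0.0709, edgeR), while library totals ended both BC187 calls (-0.59 at 30 min and -0.33 at 3 h).

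PMC1 (YGL006W, chromosome VII, 485921 to 489442, plus strand), the gene of the vacuolar calcium ATPase, went up in 2 strains and down in 1 at 30 min. In BY4743 the libraries were at 113, 145 and 152 CPM before stress, 464, 478 and 459.5 CPM at 30 min and 295, 222 and 230.1 CPM at 3 h. The 3 values at 30 min were close to one another and above every other library in the series, and the log2 change was 1.77 ± 0.16 (edgeR adjusted p = 6.96e-11). BC187 was at 115, 131 and 87.5 CPM before stress, 178, 247 and 172 CPM at 30 min and 157, 192 and 166 CPM at 3 h. Both stressed groups lay above the unstressed one, with log2 changes of 0.84 ± 0.16 (edgeR adjusted p = 9.33e-05) and 0.64 ± 0.16 (edgeR adjusted p = 0.00107). NCYC3290 moved later, from 129, 182 and 166 CPM through 204, 172 and 186 CPM at 30 min (0.24 ± 0.16, adjusted p = 0.261, edgeR) to 319, 257 and 263 CPM at 3 h, when it was 1.77-fold higher (0.82 ± 0.16, adjusted p = 4.04e-05, edgeR). In BY4743 PMC1 was still 1.82-fold higher at 3 h (0.87 ± 0.16, adjusted p = 3.19e-05, edgeR). YPS128 was at 126, 155 and 119 CPM before stress, 84.1 and 97.0 CPM at 30 min and 133, 156 and 137 CPM at 3 h. Its 2 libraries at 30 min lay below the unstressed ones (-0.59 ± 0.19, adjusted p = 0.0297, edgeR), and at 3 h the groups overlapped (0.09 ± 0.16, adjusted p = 0.610, edgeR), a value that passed as an increase with library totals in place of TMM (0.91, adjusted p = 2.17e-05, edgeR). The YPS128 decrease was lost without the replicate block (-0.55, adjusted p = 0.0572, edgeR) and without replicate 1 (-0.57, adjusted p = 0.195), 2 (-0.56, adjusted p = 0.118) or 3 (-0.65, adjusted p = 0.0527), and the BC187 call at 3 h without replicate 3 (0.44, adjusted p = 0.0919, edgeR).

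PMR1 (YGL167C, chromosome VII, 187616 to 190468, minus strand) encodes the Golgi calcium and manganese ATPase and overlaps YGL168W on the opposite strand, so reads of the 2 genes can be told apart only if strand was used in counting, which is not stated. It had 138 to 184 CPM per kb over the unstressed strain means. None of its 8 contrasts passed by edgeR or DESeq2, and 1 had an unadjusted edgeR p under 0.05. The log2 changes ran from -0.32 to 0.12, with the lowest in YPS128 at 3 h. With library totals in place of TMM, 4 of the 8 passed as increases, those of BY4743 at 30 min (0.33, adjusted p = 0.00306, edgeR) and of the 3 wild strains at 3 h (0.39, 0.66 and 0.50 for BC187, NCYC3290 and YPS128). VCX1 (YDL128W, chromosome IV, 232652 to 233887, plus strand) encodes the vacuolar calcium and proton exchanger. In BY4743 it was at 128, 139 and 116 CPM before stress, 138, 156 and 221 CPM at 30 min and 277, 257 and 194 CPM at 3 h. All libraries at 3 h lay above the unstressed ones, and VCX1 was 1.90-fold higher (0.92 ± 0.19, adjusted p = 0.000162, edgeR). The call at 30 min (0.45 ± 0.19, adjusted p = 0.0411, edgeR) rested on replicate 3 and was lost without it (0.06, adjusted p = 0.805, edgeR), without the replicate block (0.42, adjusted p = 0.0787, edgeR), with a block for each culture (0.43, adjusted p = 0.0782, edgeR) and in the 34-library fit that left out YPS128 replicate 3 at 3 h (0.43, adjusted p = 0.0586, edgeR). In the wild strains 0 of 6 VCX1 contrasts passed by edgeR or DESeq2, and 1 had an unadjusted edgeR p under 0.05, with 0.52 in YPS128 at 30 min the furthest from 0, and that value passed without replicate 2 (1.01, adjusted p = 0.0188, edgeR). In BC187 at 3 h VCX1 (0.38) passed with library totals (0.64, adjusted p = 0.000115, edgeR), with at least 10 counts in every library (0.47, adjusted p = 0.0393, edgeR) and without replicate 3 (0.50, adjusted p = 0.0456, edgeR). Library totals also turned the 3 h values of NCYC3290 and YPS128 from -0.00 and -0.19 to increases that passed (0.59 and 0.64).

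CMK2 (YOL016C, chromosome XV, 294777 to 296120, minus strand) encodes a calmodulin-dependent protein kinase. Before stress it was the most abundant of the 10 genes per length in BY4743, BC187 and YPS128, with 213, 187 and 236 CPM per kb. YPS128 was at 345, 359 and 249 CPM before stress, 15.7 and 21.2 CPM in the 2 libraries at 30 min and 70.2, 75.2 and 76.6 CPM at 3 h. The values at 30 min were the lowest in the series, and the log2 change was -4.12 ± 0.31 (edgeR adjusted p = 6.23e-12). In NCYC3290 CMK2 was at 126, 149.7 and 151 CPM, 27.1, 30.3 and 26.9 CPM and 86.5, 76.0 and 91.1 CPM. The BC187 libraries were at 329, 241 and 182 CPM, 53.3, 84.3 and 47.3 CPM and 69.4, 69.6 and 84.4 CPM. Stressed and unstressed libraries did not overlap in any wild strain at either time, with changes at 30 min of -2.34 ± 0.23 in NCYC3290 (edgeR adjusted p = 2.35e-09) and -2.03 ± 0.22 in BC187 (edgeR adjusted p = 1.07e-08). BY4743 went from 223, 312 and 325 CPM to 299, 267 and 162 CPM at 30 min, groups that overlapped (-0.26 ± 0.21, adjusted p = 0.292, edgeR), though the decrease passed without replicate 1 (-0.59, adjusted p = 0.0495, edgeR), and to 89.2, 62.9 and 81.9 CPM at 3 h (-1.88 ± 0.22, adjusted p = 2.08e-08, edgeR). At 3 h the group means of the 4 strains lay between 74.0 and 84.5 CPM, against 142 to 318 CPM before stress. The decreases at 3 h were -1.74 ± 0.22 in BC187, -0.75 ± 0.21 in NCYC3290 and -2.09 ± 0.22 in YPS128 (edgeR adjusted p = 6.5e-08, 0.00335 and 9.83e-10). The NCYC3290 call at 3 h was lost with library totals in place of TMM (-0.14, adjusted p = 0.650, edgeR).

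The 2 stressed times were also compared with each other within each strain. In BY4743, 6 of the 10 genes differed between these times, where 50.2% of all genes did. RCN1, RCN2, CRZ1, PMC1 and CMK2 fell, with log2 changes from -1.88 for RCN2 to -0.90 for PMC1, and VCX1 rose by 0.48. The VCX1 rise was lost without replicate 1 (0.22) or replicate 2 (0.38). BC187 had 2 such genes, CNA1 and CMP2, both higher at 3 h (0.35 and 1.15), against 52.9% of all genes, and the CNA1 call was lost without any 1 of the replicates (0.30 to 0.36). In NCYC3290, 5 genes differed, against 54.8%: CMP2, CRZ1, PMC1 and CMK2 rose (1.29, 0.74, 0.58 and 1.59) and RCN1 fell (-0.82, -0.23 and not passing with library totals). In YPS128, 5 genes differed, against 59.3%, with CMP2, RCN2, PMC1 and CMK2 higher at 3 h (1.11, 1.37, 0.68 and 2.03). VCX1 was lower in YPS128 (-0.71), a call lost without replicate 1 (-0.47) and turned to 0.24 by library totals. Other values that passed with library totals were PMR1 and VCX1 in BC187, CNA1, CNB1, RCN2, PMR1 and VCX1 in NCYC3290 and CNA1, CNB1, RCN1, CRZ1 and PMR1 in YPS128, all higher at 3 h (0.39 to 1.32), and with at least 10 counts in every library CNA1 passed in NCYC3290 (0.34) and, with CRZ1, in YPS128 (0.42 and 0.56).

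Whether the response differed among strains was tested directly. In the F test over the strain-by-time terms, 7 of the 10 genes passed, CNA1, CNB1 and PMR1 being the exceptions, where 67.0% of all genes passed. CMK2 (edgeR adjusted p = 3.02e-10), RCN2 (1.17e-08) and PMC1 (3.41e-08) had the lowest values. Each strain's response was then set against the mean response of the 4 strains. At 30 min in BY4743, 6 of the 10 genes lay above the mean, where 46.3% of all genes differed in either direction. They were CMK2 (1.93 ± 0.19), RCN2 (1.41 ± 0.17), PMC1 (1.20 ± 0.14), CRZ1 (0.86 ± 0.16), CMP2 (0.60 ± 0.15) and RCN1 (0.58 ± 0.18). YPS128 lay below the mean in 3 genes, CMK2 (-1.94 ± 0.24), RCN2 (-1.28 ± 0.20) and PMC1 (-1.15 ± 0.16), against 11.1% of all genes. This share and those that follow for a response against the mean also count both directions. BC187 and NCYC3290 differed from the mean in 0 genes by edgeR and by DESeq2, against 2.13 and 2.44% of all genes, and each had 1 gene at an unadjusted p under 0.05. At 3 h the calls were VCX1 in BY4743 (0.65 ± 0.16, against 24.2% of all genes), CMK2 in NCYC3290 (0.87 ± 0.19, against 3.80%) and PMC1, VCX1 and CMK2 in YPS128, all lower (-0.51 ± 0.14, -0.47 ± 0.16 and -0.48 ± 0.18, against 31.1%), with 0 in BC187 by edgeR, by DESeq2 and at an unadjusted p under 0.05, against 7.08%. All 3 YPS128 calls at 3 h were lost with library totals in place of TMM (PMC1 -0.16, adjusted p = 0.378, VCX1 -0.10, adjusted p = 0.495 and CMK2 -0.13, adjusted p = 0.680, edgeR) and without replicate 1 (-0.40, -0.53 and -0.39). VCX1 was also lost there without replicate 2 (-0.27, adjusted p = 0.349, edgeR), with a block for each culture (-0.46, adjusted p = 0.0554, edgeR) and in the 34-library fit (-0.42, adjusted p = 0.104, edgeR). The CMK2 value of YPS128 did not pass without replicate 2 (-0.49) or 3 (-0.54), without the replicate block (-0.48, adjusted p = 0.0569, edgeR), with a block for each culture (-0.48), with at least 10 counts in every library (-0.44) or in the 34-library fit (-0.53). CMK2 in NCYC3290 was lost without replicate 1 (0.76, adjusted p = 0.0872, edgeR) or 2 (0.87, adjusted p = 0.0553, edgeR). At 30 min, CRZ1 in BY4743 (0.47) and RCN2 in YPS128 (-0.84) were lost without replicate 1, and RCN1 in BY4743 without replicate 3 (0.47).

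Before stress, differences from the mean of the 4 strains, which includes the strain itself, ran from -0.74 to 0.40. Both ends were CMK2, with group means of 142 CPM in NCYC3290 and 318 CPM in YPS128. Of 40 comparisons of a strain with the mean of the 4 strains, 13 passed, and 4 did when the replicate block was left out of the model. In NCYC3290, 6 genes differed, where 29.6% of all 5644 genes tested did: CMK2 (-0.74 ± 0.17), RCN2 (-0.43 ± 0.09) and CRZ1 (-0.32 ± 0.09) were lower, and PMC1 (0.24 ± 0.07), PMR1 (0.22 ± 0.05) and CMP2 (0.18 ± 0.07) were higher. The CMK2, CRZ1 and PMC1 differences were not called without replicate 2 (-0.71, adjusted p = 0.191, -0.32, adjusted p = 0.149 and 0.26, adjusted p = 0.0645, edgeR), and that of CMP2 without replicate 1 or 3. The CMP2 difference was not called by DESeq2 either (0.17, adjusted p = 0.105). The 3 unstressed NCYC3290 libraries had the lowest CMK2 values of all unstressed libraries. BY4743 had 2 such genes, with CNA1 higher (0.26 ± 0.06) and PMR1 lower (-0.17 ± 0.06), against 49.6% of all genes, and the PMR1 call was lost without replicate 2 (-0.13) or 3 (-0.15) and with library totals (-0.08). CMK2 in BY4743 (0.29) passed without replicate 1 (0.48, adjusted p = 3.59e-05, edgeR). In BC187, CMP2 (-0.27 ± 0.07) and PMC1 (-0.29 ± 0.07) were lower, against 30.2%, and both calls were lost without replicate 3 (-0.18 and -0.14). In YPS128, VCX1 (0.27 ± 0.07) and RCN2 (0.23 ± 0.08) were higher and CNA1 was lower (-0.26 ± 0.07), against 40.1%. The VCX1 difference was set by replicate 2, whose 250 CPM stood beside 138 and 138 CPM, and it was 0.07 without it. RCN2 in YPS128 was 0.06, adjusted p = 0.690 (edgeR) without replicate 1 and 0.06, adjusted p = 0.581 (edgeR) with library totals, and was not called by DESeq2 (adjusted p = 0.0624). The 4 that passed without the replicate block were CNA1 in BY4743, RCN2 in NCYC3290, CMK2 in NCYC3290 and CMK2 in YPS128, the last of which did not pass in the main fit. CMK2 in YPS128 also passed by DESeq2 (0.40, adjusted p = 0.04075) and in the fit to all 35 libraries (0.41, adjusted p = 0.0180, edgeR). It passed without replicate 1 (0.34, adjusted p = 0.00308, edgeR) or 3 (0.48, adjusted p = 0.0342, edgeR) as well. Per length, the order of the strain means was CMK2, PMR1, CNB1, VCX1, RCN2, CRZ1, PMC1, CMP2, CNA1 and RCN1 in BY4743, and neighbours had overlapping libraries from PMR1 to VCX1 and from CRZ1 to CNA1 in that order, while CMK2, RCN2 and RCN1 did not overlap the genes next to them in any library.

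Other genes of the pathway were counted in 3 lists written from textbook knowledge. Among 11 known targets of Crz1 outside the 10 genes, 10 rose and 1 fell in BY4743 at 30 min, with a median log2 change of 1.31, where 34.3% of all genes rose and 28.7% fell. At the same time BC187 had 2 increases and 1 decrease (median -0.08), against 18.4 and 16.3% of all genes, NCYC3290 had 3 of each (-0.30), against 16.2 and 12.7%, and YPS128 had 2 increases and 6 decreases (-0.57), against 8.59 and 6.58%. By 3 h the counts were 4 up and 2 down in BY4743, against 23.1 and 21.5% of all genes, 6 and 1 in BC187, against 30.4 and 24.5%, 6 and 1 in NCYC3290, against 32.2 and 28.2%, and 7 and 0 in YPS128, against 35.7 and 32.2%. ENA1, the sodium pump gene, rose in all 8 contrasts and had the highest mean change of the list. Its group means went from 44.1 to 883 and 619 CPM in BY4743 and from 4.43 to 28.6 and 354 CPM in YPS128, but only 14.8% of its 100-base windows are unique in the reference, so its reads cannot be separated from those of its near copies. NCW2, a cell wall protein gene with the lowest mean change, rose in BY4743 at 30 min (1.17 ± 0.17) and fell in NCYC3290 (-0.48 ± 0.18) and YPS128 (-1.05 ± 0.21) at that time.

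**Figure D4:**
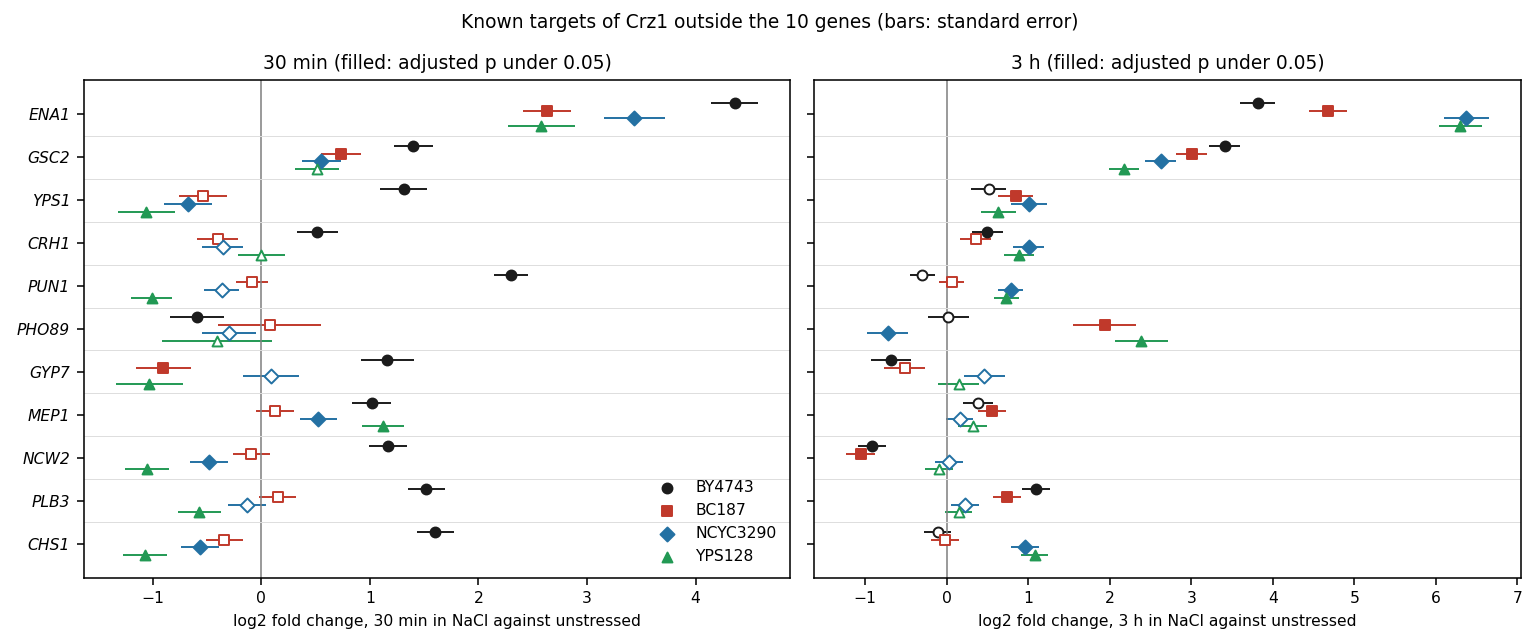
Log2 fold change of 11 known Crz1 targets at 30 min (left) and 3 h (right) of NaCl against unstressed cells, on the TMM scale, with 1 point per strain, bars for the standard error and filled points where the edgeR adjusted p was under 0.05. At 30 min the BY4743 points lay above 0 for 10 of the 11 genes and below 0 for PHO89 (-0.59), while 6 YPS128 points were filled below 0.

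Of 8 calcium channels and transporters outside the 10 genes, 2 rose and 3 fell in BY4743 at 30 min, where 34.3% of all genes rose and 28.7% fell. None rose and 1 fell in BC187, against 18.4 and 16.3% of all genes, and the other wild strains had 1 of each, where the shares of all genes were 16.2 and 12.7% (NCYC3290) and 8.59 and 6.58% (YPS128). At 3 h, when 23.1 to 35.7% of all genes rose and 21.5 to 32.2% fell in the 4 strains, BY4743 had 1 decrease and no increase, BC187 had 3 increases and 2 decreases, and the other wild strains had 4 increases and 2 decreases each. GDT1, a Golgi calcium and manganese transporter gene, had the lowest mean change and fell at 3 h in all 4 strains, from -1.55 ± 0.20 in YPS128 to -0.76 ± 0.20 in BC187. FIG1, which is needed for low-affinity calcium uptake during mating, had the highest mean change, but its 1 call, in BY4743 at 30 min, came from replicate 1, with 256 reads beside 0 and 5 reads in replicates 2 and 3. Of 7 genes for calmodulin, kinases and calcineurin substrates with their partners, 3 rose and 1 fell in BY4743 at 30 min, 2 rose and 1 fell in BC187, 2 rose in NCYC3290 and none passed in YPS128, beside the same shares of all genes at 30 min. At 3 h, beside the shares just given for that time, 2 rose in BY4743, 3 rose in BC187, 2 rose and 2 fell in NCYC3290, and YPS128 had 3 increases and 2 decreases. FRT2, which encodes an endoplasmic reticulum membrane protein that binds the calcineurin substrate Frt1, had the highest mean change and rose in 6 of 8 contrasts, by 1.84 ± 0.30 in BC187 at 30 min and 1.98 ± 0.27 in YPS128 at 3 h. MCK1, a kinase gene of the glycogen synthase kinase 3 family, had the lowest mean change and fell in BY4743 at 30 min (-0.71 ± 0.21) and in NCYC3290 (-0.53 ± 0.21) and YPS128 (-0.76 ± 0.21) at 3 h. Of the 8 zero counts in the 3 lists, all were 0 by DESeq2 as well, and 2 had 1 gene at an unadjusted edgeR p under 0.05.

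The genes with the most similar pattern to RCN2, by Pearson correlation of log2 CPM over the 12 group means, were CUB1 (r = 0.97), SLM1 (r = 0.95) and YMR030W-A (r = 0.95). SLM1, which encodes a phosphoinositide-binding substrate of calcineurin, overlaps another annotated feature. For CMK2 they were MLP2 (r = 0.93), YTA6 (r = 0.92) and YOR385W (r = 0.92), and for PMC1 STU1 (r = 0.92), YIR016W (r = 0.91) and APC4 (r = 0.90). These are descriptions over group means that share libraries and strains, picked as the highest of all genes tested.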

How the data were processed

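Total RNA of the 35 samples was depleted of ribosomal RNA and sequenced from stranded libraries. The authors trimmed the reads with Trimmomatic, mapped them to the S288c genome (R64-1-1) with bwa-mem and deposited the counts per gene from HT-Seq, not normalized, with no statement of the strand or multi-mapping settings. Levels of diverged genes in wild strains can therefore be understated. Library totals were 3629637 to 5866906.

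Members and gene lists were chosen with earlier results of these data known, and the pathway lists were written from textbook knowledge. From each list the genes with the highest and lowest mean change among those called, and ENA1, were named. Counts were analysed with edgeR 4.0.16 in R 4.3.3: filterByExpr over 12 strain-by-time groups (6019 genes), TMM, a robust quasi-likelihood fit to all 35 libraries with the replicate number as a block, contrasts by strain, and Benjamini-Hochberg adjustment within each contrast at 0.05. Unstressed levels were compared in a separate fit of the 12 unstressed libraries (5644 genes). The standard error is the absolute log2 change over the square root of F. Replicate numbers pair the samples because, per the study's methods, all strains of a replicate were grown in parallel. Counting r over 0.1, same-numbered samples of different strains deviated together in 18 of 18 strain pairs before stress (r = 0.22 to 0.56). At 30 min 5 of 15 pairs did (r = -0.25 to 0.28), and at 3 h 17 of 18 (r = 0.08 to 0.64). Samples of 1 culture over time were not modelled as repeated measures except in an alternative.

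No 2 replicates agreed within sampling noise. The biological coefficient of variation was 15.5%, and 8.50% in the unstressed fit. On simulated counts with 200 genes changed by a log2 of 1.5, the fit recovered 93% in the BY4743 contrast at 30 min (5888 genes) and 90% in that of YPS128 (5884 genes). The simulated counts held no strain, time or replicate effect apart from these changes, and smaller changes were not simulated. The alternatives were DESeq2 (1.42.0), its size factors, library totals without TMM, 2 filters, no block, a block for each culture, each replicate number left out, and 34 libraries. The YPS128 replicate 3 library at 3 h, whose culture has no 30 min library, was kept. Promoter letters and gene positions were read from the R64 genome with its RefSeq annotation, in which 6025 of the 6717 IDs were found. The authors' build is the same assembly.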

Additional observations from a re-analysis of the deposited data

Results flagged for a closer look

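The NaCl response of a strain differed from the mean response of the 4 strains, by edgeR's test of the difference itself, in 14 cases. In the same contrasts all 6019 genes tested gave 7710 such cases. At 30 min the log2 difference was positive in BY4743 for CMP2 (0.60), RCN1 (0.58), RCN2 (1.41), CRZ1 (0.86), PMC1 (1.20) and CMK2 (1.93), and negative in YPS128 for RCN2 (-1.28), PMC1 (-1.15) and CMK2 (-1.94). At 3 h it was positive for VCX1 in BY4743 (0.65) and for CMK2 in NCYC3290 (0.87), and negative in YPS128 for PMC1 (-0.51), VCX1 (-0.47) and CMK2 (-0.48). All 3 of these YPS128 values at 3 h were lost with library totals in place of TMM (-0.16, -0.10 and -0.13) and without replicate 1, as was CMK2 in NCYC3290 without replicate 1 or 2. The mean includes the strain itself, and all cases share libraries, so that a value of one strain enters the differences of the others.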

How the results depend on the processing

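Counts of calls over the 10 genes were 15 at 30 min, 19 at 3 h, 18 between the stressed times, 14 for strain responses against their mean, 7 in the F test and 13 before stress. The counts at 30 min and at 3 h came from 40 tests each. They compare with counts over all genes only as shares, which are given by strain in the Results. In the same contrasts, all 6019 genes gave 8532 calls at 30 min and 13712 at 3 h. They gave 13079 between the stressed times and 7710 for strain responses, and 67.0% passed the F test. Before stress 29.6 to 49.6% of all genes passed, by strain. With library totals in place of TMM, there were 11 increases and 6 decreases at 30 min (8019 calls over all genes). At 3 h there were 24 and 4 (14641 calls over all genes). The count between the stressed times became 28 (14164 over all genes) and that of strain responses 23 (9442 over all genes). Without the replicate block the unstressed count became 4, and it was 5 when these groups were compared in the fit to all 35 libraries. Leaving out each replicate number in turn gave 12 to 14, 16 to 17, 15 to 17, 8 to 12, 5 to 7 and 8 to 14 in the order above, with the 8 strain responses found without replicate 1 and the 8 unstressed calls without replicate 2. Calls over all genes fell as well, to 6837, 11487, 11401 and 5638 without replicate 3 in the first 4 comparisons. Leaving out replicate 1 or 2 left 1 library in YPS128 at 30 min, so counts over all genes are not given there. Without the replicate block the counts were 13, 19, 18, 13 and 7 in the order above before the unstressed one. All genes then gave 7830, 13038, 12255 and 6551 calls in the first 4 comparisons. VCX1 in BY4743 and PMC1 in YPS128 at 30 min and CMK2 in the 3 h response of YPS128 no longer passed without the block. No other call outside the unstressed comparison changed. Library totals reversed the sign of 11 log2 values, counted only among values that passed with TMM or with library totals. VCX1 became 0.59 at 3 h and 0.39 between the stressed times in NCYC3290. In YPS128 at 3 h, CNB1 became 0.65, CRZ1 0.29, PMR1 0.50 and VCX1 0.64, and between the stressed times CNB1 became 0.76, PMR1 0.72 and VCX1 0.24. PMR1 became -0.22 in the response of BY4743 at 3 h against the mean, and -0.17 in unstressed YPS128. The cause was not tested, and by construction this alternative adds the shift of the median gene to each change. DESeq2's size factors and no filter on low counts changed none of the 240 values' calls. Over these values, a minimum of 10 counts in every library added 9 calls and ended 2, and library totals added 35 and ended 10 beside the reversed values. RCN1 had the fewest reads, 23 in its lowest library.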
